A study of Mus musculus with 2 samples.

Results

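The forkhead family of transcription factors was compared between cultured mouse skeletal myoblasts with and without a working Foxj3 gene. Members were all genes that the array's platform annotation names Fox with a letter from a to s and a number, other than Foxj3 itself and the cell cycle factor Foxm1. This gave 35 genes with 75 probe sets, of 18193 named genes and 45037 probe sets in all. RNA from 1 wild-type (WT) and 1 Foxj3 knockout (KO) myoblast culture was hybridised to 1 Affymetrix Mouse430_2 array each, with both cultures taken at passage 3 from serum-rich medium, short of confluence. The labels do not give the mouse strain, the age or number of animals, the part of Foxj3 that was removed, or whether a culture was clonal. With 1 array per genotype there was no replicate and no test, so each value describes these arrays and a difference could be set only against the disagreement of probe sets of the same gene. In a bulk culture, fewer cells of a type and less RNA per cell cannot be told apart.

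Forkhead proteins share a winged-helix DNA-binding domain and bind sites with a TGTTT core, so that family members can compete for or share target sites. The letters after Fox mark subfamilies of related proteins: FoxJ holds Foxj3 and its paralogue Foxj2, FoxK and FoxO factors act in muscle cell growth and atrophy, FoxP factors act as dimers and often repress, and the remaining subfamilies are best known from embryonic patterning or from single tissues. The question put to the arrays was whether relatives of Foxj3 carried more transcript in the cells that lack it.

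In the KO culture the family had no common shift. Of the 35 members, 27 were measured, meaning that their main probe set, the one with the highest mean log2 signal, read over the detection floor of 47.04 on at least 1 array (the 40th percentile of all values), and 8 were under the floor on both. Among the 27, 14 read higher and 13 lower on the KO array. Only Foxn4 was at least 2-fold higher and 0 members were at least 2-fold lower, where over all 14597 measured genes the share was 3.73% for higher and 6.72% for lower. For Foxc1, Foxd3, Foxa2 and Foxe3, each under the floor on 1 array, only a lower bound of the fold could be given. The median size of a ratio, without its sign, was 0.53 on the log2 scale over the members and 0.38 over all measured genes. With the KO array centred on the median ratio, the shares over all genes were 4.62% higher and 5.52% lower, and the members' counts were again 1 and 0. The median log2 ratio of KO over WT was 0.04 over the members and -0.06 over all measured genes, and the middle 80% of members ran from -0.75 to 0.65, against -0.85 to 0.67 over all. The members' median changed sign with other floors and other sets of probe sets, ranging from -0.14 to 0.08. At 1.5-fold, 5 members were higher (Foxn4, Foxo4, Foxh1, Foxd2 and Foxo3) and 5 lower (Foxk2, Foxn1, Foxj2, Foxf2 and Foxn2), beside 12.8% and 19.3% of all measured genes.

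**Figure D1:**
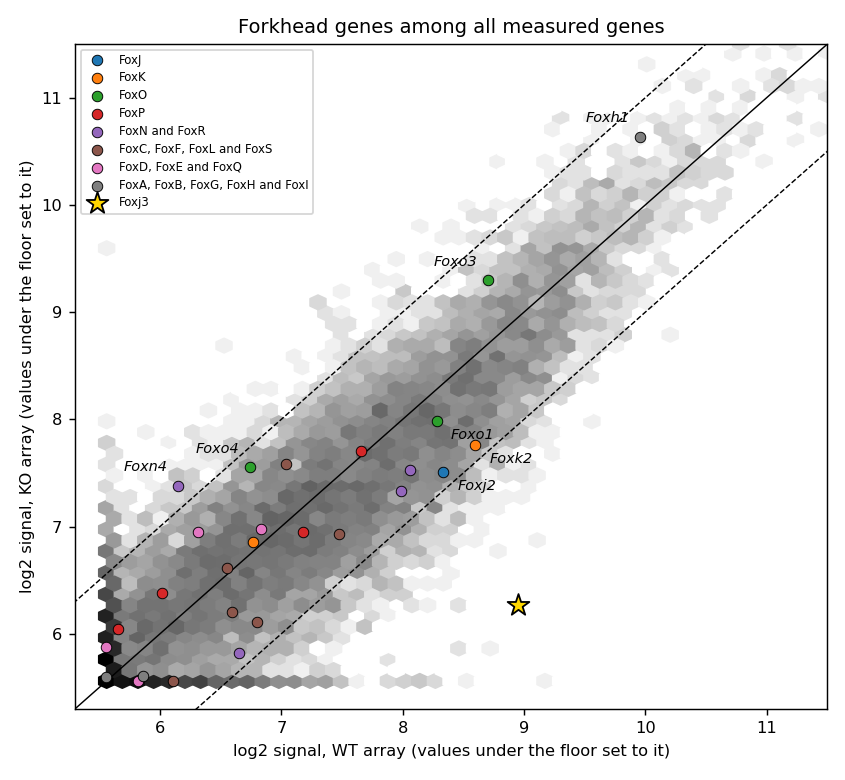
Log2 signal of each measured forkhead gene (coloured by subfamily) on the WT array (x axis) and the KO array (y axis) over the density of all measured genes (grey hexagons, darker for more genes on a log scale), with Foxj3 as a star; the solid line marks equal signal and the dashed lines 2-fold. The 27 members lie around the line of equal signal, and Foxn4 is the member outside the dashed lines, while Foxj3 lies far below them at 496 for WT and 77.3 for KO.

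The targeted gene read 496 in WT and 77.3 in KO cells by its main probe set, a log2 ratio of -2.68. Its other measured probe set read 79.7 and 99.4, so the probe sets differed in direction and do not settle whether the labels are correct. Probe sets of a gene disagreed widely throughout. Over 4752 genes with at least 2 probe sets reading above the floor in both cultures, the log2 ratios of 1 gene had an SD of 0.66, and over the 8 such members the SD was 0.60. The main ratios of 19 of the 27 measured members lay closer to 0 than 0.66. The same share over all measured genes was not computed, so this count has no full yardstick. Their quartiles, at -0.46 and 0.31, also lay closer to 0 than 0.66. This SD compares probe sets on the same arrays and does not measure the spread between cultures. Among 13 members with at least 2 measured probe sets, all agreed in sign in 10: below 0 in Foxj2, Foxo1, Foxp4, Foxn3 and Foxc1, and above 0 in Foxk1, Foxo3, Foxf1, Foxd2 and Foxq1. Both probe sets of Foxc1, and the dimmer ones of Foxj2, Foxf1 and Foxq1, were over the floor on only 1 array, which fixes their sign. The share of genes in agreement over the whole array was not computed, so this count has no yardstick. Taken by probe set, 2 of 49 were past 2-fold upwards and 3 downwards, where 5.62% and 6.67% of all 25058 measured probe sets were.

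**Figure D2:**
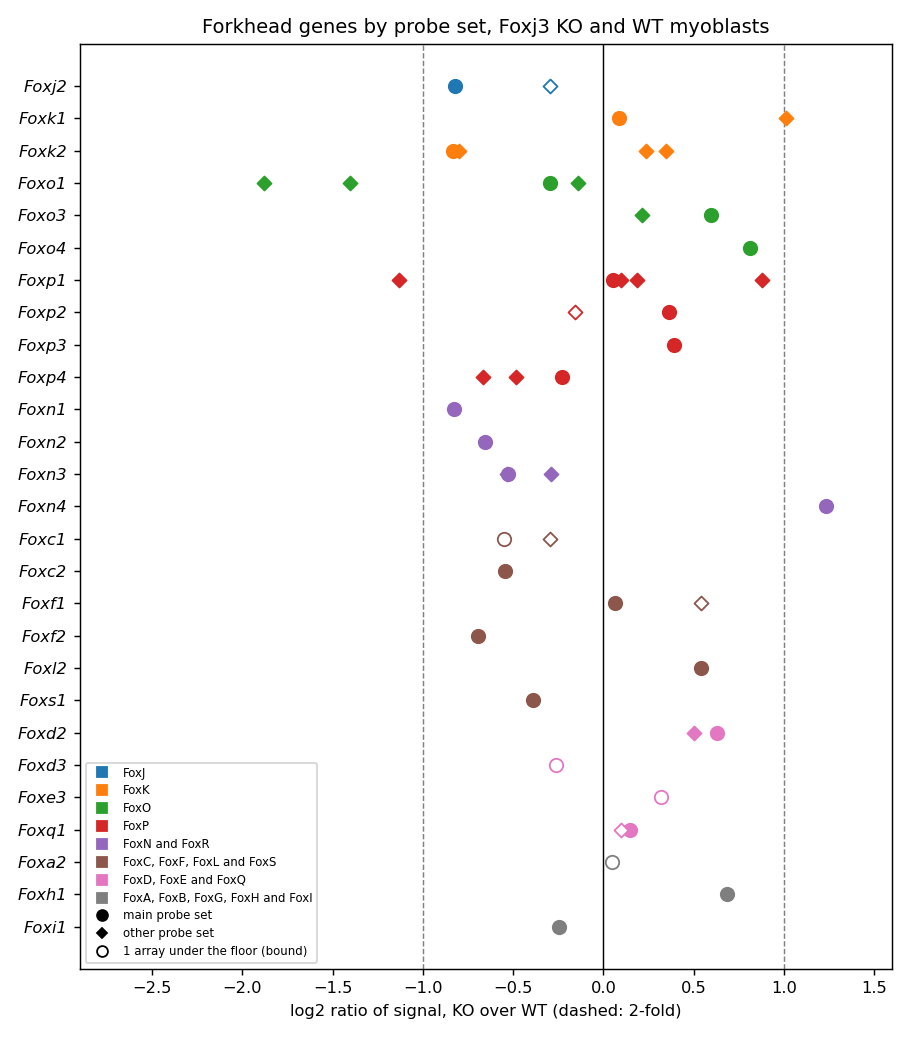
Log2 ratio of KO over WT signal (x axis, dashed lines at 2-fold) for every measured probe set of the 27 measured forkhead genes (y axis), coloured by subfamily, with the main probe set as a circle, other probe sets as diamonds, and open symbols where 1 array was under the floor so that the value is a bound. Foxo1 probe sets all lie below 0 and reach -1.88, whereas those of Foxp1 and Foxk2 lie on both sides.

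In the FoxJ subfamily, Foxj2 was not higher without Foxj3. Foxj2, a widely expressed activator and the closest relative of Foxj3 among the members, read 323 in WT and 182 in KO cells, 1.77-fold lower (log2 ratio -0.82). Its other probe set read 57.8 and, under the floor, 46.3, at least 1.23-fold lower. Both were below 0, and the sign of the main ratio was the same under all 11 alternative settings, with values from -0.87 to -0.56. The other floors returned the same -0.82, since both readings lay over each of them. Every setting reuses the same arrays, so the shared sign is no independent support. Foxj1, which drives the formation of motile cilia, was under the floor on both arrays at 28.0 and 17.3. Of 17 genes of motile cilia, 9 were measured, with a median log2 ratio of 0.08. Past 2-fold were 0 of these 9, beside 3.73% of all measured genes upwards and 6.72% downwards. The largest ratios among them were Rfx3, a regulator of ciliary genes, at 57.8 and 80.2 (with 53.9 and 34.5 by its other probe set), and the dynein chain gene Dnaic1, at 32.1 and 63.9.

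The FoxK genes differed from each other. Foxk1, first described as myocyte nuclear factor and needed for the proliferation of muscle satellite cells, read 109 in WT and 115 in KO cells by its main probe set, a log2 ratio of 0.08. A further probe set of Foxk1 read 60.7 and 122, 2.01-fold higher, and the remaining one was under the floor at 6.16 and 22.3. Foxk2, which with Foxk1 represses autophagy genes, read 388 and 217 by its main probe set (1.78-fold lower) and 363 and 208 by another (1.74-fold lower). Its other measured probe sets went the other way, at 164 and 193 (log2 ratio 0.24) and at 84.0 and 107 (log2 ratio 0.35), and 1 was under the floor on both arrays at 46.4 and 45.8. Both lower probe sets and the one at 84.0 and 107 were designed on the same representative sequence. Averaged over all probe sets, with the one under the floor counted as 0, the log2 ratio of Foxk2 was -0.21. Of 16 genes for known partners of FoxK proteins, all measured, 0 were past 2-fold upwards and 1 downwards, with a median of -0.06, where 3.73% and 6.72% of all measured genes were. The gene past 2-fold was Dvl1, a Wnt signal transducer whose protein FoxK factors carry into the nucleus, at 589 and 141, a log2 ratio of -2.06, with 301 and 222 by its other probe set.

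The FoxO genes differed in sign, with Foxo1 on one side and Foxo3 and Foxo4 on the other. By main probe sets, Foxo1 (log2 ratio -0.29) and Foxo3 (0.59) lay closer to 0 than the probe set SD of 0.66, and Foxo4 (0.81) did not. FoxO factors are kept out of the nucleus by Akt phosphorylation and, when active, induce muscle atrophy and autophagy genes, so a transcript level does not give their activity. Foxo1 was lower on the KO array by all 4 of its probe sets. The main one read 310.5 and 253 (1.23-fold lower), and the others read 334 and 127 (2.64-fold lower), 182 and 49.3 (3.68-fold lower) and 102 and 92.3 (1.10-fold lower). The ratios thus ran from -0.14 to -1.88 on the log2 scale, and 3 of the probe sets, with -0.14, -0.29 and -1.40, shared a representative sequence. The mean over the 4 was -0.93, under 2-fold.

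Foxo3, the member most linked to muscle atrophy, was higher on the KO array, at 416 and 628 by its main probe set (1.51-fold) and at 372 and 432 by another (1.16-fold). Its remaining probe set was under the floor, at 25.5 and 15.1. Foxo4 read 107 and 188, 1.76-fold higher, by the only one of its probe sets over the floor, and 44.1 and 37.5 by the other. The median over these 3 genes was 0.59, and it was above 0 under all 11 alternatives (0.27 to 0.67). It rests on 3 genes and the same arrays, and under every setting it was the ratio of Foxo3 itself. It therefore adds nothing to that gene, and the other floors left it unchanged at 0.59. Foxo6 has no probe set named on this array.

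**Figure D3:**
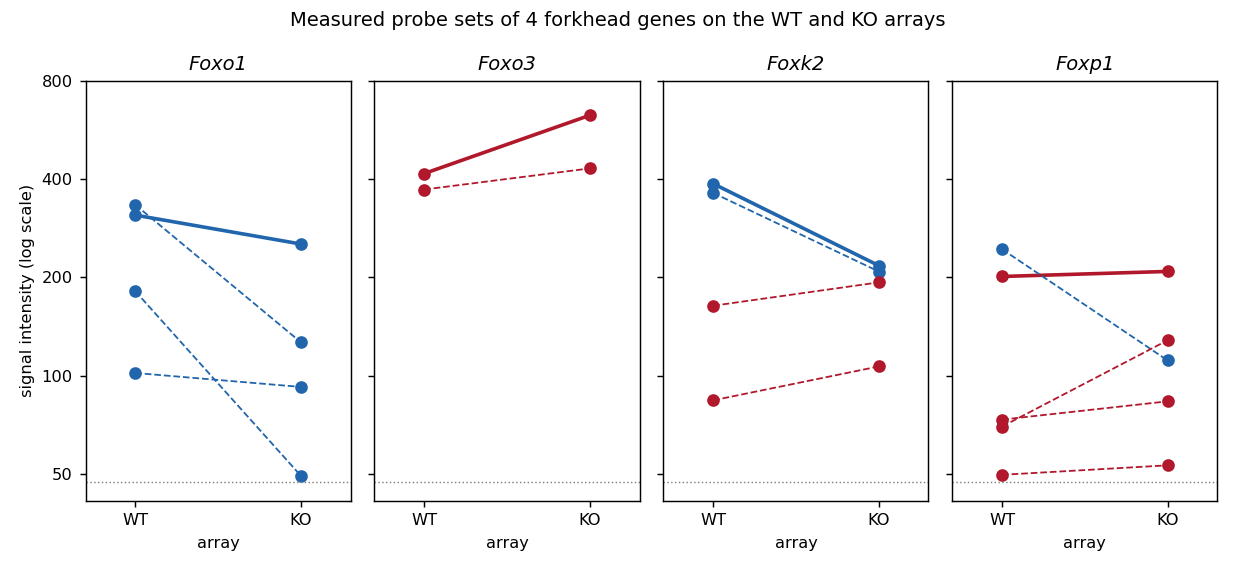
Signal intensity (y axis, log scale) on the WT and KO arrays for each measured probe set of Foxo1, Foxo3, Foxk2 and Foxp1, with a thick solid line for the main probe set, dashed lines for the others, red for higher and blue for lower on the KO array, and a dotted line at the floor of 47.04. All 4 Foxo1 probe sets read lower and both Foxo3 probe sets higher on the KO array, while Foxk2 and Foxp1 have lines in both directions.

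Among genes that FoxO factors are known to induce, more main probe sets read lower than higher in the KO culture, by small ratios. Other measured probe sets of the lower genes went both ways, more often higher than lower. Of 33 measured FoxO target genes on a list of 35, 22 were below 0 and 11 above, beside 7838 of all 14597 measured genes below 0. Among the 33, 3 were at least 2-fold lower and 1 at least 2-fold higher, near the 6.72% and 3.73% of all measured genes. The median log2 ratio was -0.31 against -0.06 over all measured genes. The median over all genes itself varied with mean signal, from 0.04 under 60 to -0.19 between 200 and 400. It was -0.12 between 100 and 200, and 0.01 above 400. The median of the FoxO targets was below 0 under all 11 alternatives, from -0.37 with median scaling to -0.13 with the mean over probe sets, under which 1 gene was at least 2-fold lower. With loess scaling it was -0.19. Trim63, the muscle ubiquitin ligase MuRF1, read 175 in WT and, under the floor, 23.7 in KO cells, at least 3.72-fold lower. Fbxo32, the atrophy ligase atrogin-1, read 165 and 97.7 by its main probe set (log2 ratio -0.76) but went the other way by both others, at 56.3 and 96.8 (0.78) and at 31.5, under the floor, and 62.1. Insr, which encodes the insulin receptor, read 378 and 118 (3.21-fold lower), with log2 ratios of -0.23 and, as a bound, 0.31 at its other probe sets. Bcl6, a transcriptional repressor, read 397 and 127 (3.13-fold lower) by its main probe set, whereas its other probe set read 8.11 and 113. Cited2, a CBP/p300 binding regulator, was the member past 2-fold in the other direction, at 1033 and 2429, with 0.42 on the log2 scale at its other probe set. Ctsl, which encodes the lysosomal protease cathepsin L, came close to 2-fold at 1609 and 3209. Fbxo32 and Ctsl, and Myh3 below, were chosen after their values were seen.

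Markers of differentiated muscle were lower beside these targets. All 10 of the 10 measured (such as Myh3, embryonic myosin heavy chain, at 4001 and 404) were below 0 and 9 were at least 2-fold lower, where 6.72% of all measured genes were, with a median of -2.70 and summed signals of 29565 and 5998. Trim63 and Fbxo32 are themselves genes of muscle fibres. The part of differentiated cells in the ratios of the FoxO targets was not tested.

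Upstream of FoxO, the kinases and partners showed no common direction. Of 31 measured regulators on a list of 35, 15 were above 0 and 16 below, with a median of -0.01. Past 2-fold were 1 upwards and 2 downwards, near the 3.73% and 6.72% of all measured genes. Akt1, the kinase that excludes FoxO from the nucleus, read 1076 and 1077 by its main probe set, 127 and 125 by another, and 10.5, under the floor, and 266 by a further one. Akt2 read 496 and 257 by its main probe set (log2 ratio -0.95), whereas both others read higher in KO cells, at 22.2 and 109 and at 12.2 and 99.3, with the WT values under the floor. Sgk1, a related kinase, read 168 and 58.8, 2.86-fold lower by its only measured probe set. Stk4, a Hippo pathway kinase that phosphorylates FoxO, read 347 and 122, with log2 ratios of -0.37 and, as a bound, -0.08 at its other probe sets. Mdm2, a ubiquitin ligase, was higher by both measured probe sets, at 650 and 1488 (2.29-fold) and at 234 and 806 (3.45-fold). Akt1 and Akt2 were named after their values were seen.

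FoxP genes, whose proteins pair with each other and recruit corepressors, lay near 0 by their main probe sets, with a median of 0.21 over 4 measured genes (-0.09 with a 60th percentile floor). Foxp1, a factor of B cell, heart and lung development, has 8 probe sets, of which 5 were measured. They read 201 and 209 (the main one, log2 ratio 0.05), 244 and 111 (2.19-fold lower), 69.8 and 128 (1.84-fold higher), 73.3 and 83.4 (log2 ratio 0.19) and 49.6 and 53.1 (log2 ratio 0.10). Those at -1.13, 0.19 and 0.88 shared a representative sequence. Foxp2, known from speech and brain development, read 64.8 and 83.1 by its main probe set and 52.5 and, under the floor, 46.0 by another, with 4 more under the floor on both arrays. Foxp3, the master factor of regulatory T cells, read 50.4 and 66.2, close to the floor, and its gene overlaps Flicr and Ccdc22 in the annotation. Foxp4, an epithelial factor of lung and gut, was lower by all 3 probe sets: 145 and 124 (log2 ratio -0.23), 159.9 and 101 (-0.67) and 99.3 and 70.9 (-0.49). All 16 listed partners of FoxP proteins were measured, with a median of 0.06, 8 on each side of 0, 0 past 2-fold upwards and 1 downwards, beside 3.73% and 6.72% of all measured genes. The gene past 2-fold was Hdac4, a class IIa histone deacetylase, at 169 and 76.9, with -0.34 on the log2 scale at its other probe set.

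The sequences before the starts of Foxj3 and Foxp1 are shown because Foxj3 is the gene removed and Foxp1 is the member with most measured probe sets, with ratios in both directions and 3 annotated start windows. They are from RefSeq (GRCm38.p6), 5′ to 3′ on the strand of the gene, 250 bases before each start. Capitals mark TGTTTGC in all of them and also TGTTTA in Foxp1, read on both strands (so also as GCAAACA and TAAACA).
Foxj3, chr4:119539411-119539660, plus strand: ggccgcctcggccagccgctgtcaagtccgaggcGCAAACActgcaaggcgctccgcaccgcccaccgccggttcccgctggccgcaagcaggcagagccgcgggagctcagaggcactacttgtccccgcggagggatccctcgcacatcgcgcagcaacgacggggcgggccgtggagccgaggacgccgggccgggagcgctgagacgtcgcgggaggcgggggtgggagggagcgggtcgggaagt
Foxp1 upstream start, chr6:99520994-99521243, minus strand: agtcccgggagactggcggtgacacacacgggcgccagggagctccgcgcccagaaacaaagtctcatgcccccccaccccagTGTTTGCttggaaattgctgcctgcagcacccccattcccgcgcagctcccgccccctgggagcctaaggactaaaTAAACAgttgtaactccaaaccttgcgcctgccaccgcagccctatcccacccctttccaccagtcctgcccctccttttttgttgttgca
Foxp1 middle start, chr6:99266516-99266765, minus strand: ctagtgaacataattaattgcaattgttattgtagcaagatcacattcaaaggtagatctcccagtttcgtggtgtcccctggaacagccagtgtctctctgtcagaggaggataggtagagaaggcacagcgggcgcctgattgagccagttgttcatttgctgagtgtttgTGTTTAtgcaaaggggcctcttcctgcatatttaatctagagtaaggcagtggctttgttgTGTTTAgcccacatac
Foxp1 downstream start, chr6:99028299-99028548, minus strand: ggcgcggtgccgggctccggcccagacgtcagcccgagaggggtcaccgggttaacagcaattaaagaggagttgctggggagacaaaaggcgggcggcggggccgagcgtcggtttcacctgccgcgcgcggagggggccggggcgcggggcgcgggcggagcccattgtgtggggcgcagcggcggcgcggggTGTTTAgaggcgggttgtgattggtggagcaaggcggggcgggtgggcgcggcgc
TGTTTA was present in all 3 Foxp1 windows and TGTTTGC in the upstream one of them. Promoter windows were found for 23 of the 35 members, 28 windows in all. TGTTTA occurred in 5 of these 28, from Foxa1, Foxp1 and Foxp3, and in 12.0% of all 32851 windows. TGTTTGC occurred in 1 of 28 and in 4.30% of all, and TGTTTAC, which contains TGTTTA, in 1 of 28 and in 3.17%. These are matches of letters in a short window and not measured binding. The windows of Foxo1 and Foxn4 held neither of the capitalised motifs.

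The FoxN genes held the single member past 2-fold. Foxn4, a factor of retinal and spinal interneurons, read 70.95 in WT and 167 in KO cells, 2.35-fold higher (log2 ratio 1.23), by its only probe set, so no other probe set could be set beside it. It was under 2-fold with a 60th percentile floor or a pseudocount, the lowest value being 0.86. Its WT reading lay within the range of the endoderm markers given below, which reached 166, and its KO reading lay close to their highest. The readings thus do not by themselves show a Foxn4 transcript. The other FoxN genes were lower. Foxn1, the factor of thymic epithelium and hair that is mutated in nude mice, read 100.3 and 56.5 (1.78-fold lower), and 0.67 and 29.5, under the floor, by its other probe set. Foxn2 read 253 and 161 (1.58-fold lower). Foxn3, a checkpoint-linked repressor, was below 0 by all 3 of its measured probe sets, at 266 and 185 (1.44-fold lower), 226 and 185 and 83.8 and 57.8. The median over the 4 was -0.59.

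Members known from embryonic mesoderm and mesenchyme were mixed, with a median of -0.47 over 6 measured of 7. Foxc1 and Foxc2 pattern the paraxial mesoderm from which skeletal muscle forms. Foxc1 read 68.8 in WT and, under the floor, 10.6 in KO cells, at least 1.46-fold lower, and 57.9 and, under the floor, 39.3 by its other probe set. Foxc2 read 178 and 122, 1.46-fold lower. Foxf1 and Foxf2, targets of Hedgehog signals in gut and lung mesenchyme, went opposite ways. Foxf1 read 93.6 and 97.8, with 37.2, under the floor, and 68.4 by its other probe set, and Foxf2 read 111 and 68.8 (1.62-fold lower). Foxs1, a factor of vascular mural cells, read 96.4 and 73.5. Foxl2, an ovarian granulosa cell factor, read 132 and 191 (1.45-fold higher), while Foxl1, of gut mesenchyme, was under the floor at 12.2 and 21.5. Those over the floor on both arrays were under 2-fold by their main probe sets.

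Some of these genes are neighbours. On chromosome 13 Foxq1, Foxf2 and Foxc1 follow each other with 0 protein-coding genes between them, and Foxf2 and Foxc1 were lower on the KO array while Foxq1, an epithelial factor, read 114 and 126. On chromosome 8 Foxf1, Foxc2 and Foxl1 lie together with 1 other protein-coding gene. Foxl1 was not measured, and the log2 ratios of Foxf1 (0.06, close to 0) and Foxc2 (-0.55) differed in sign. On chromosome 4, the chromosome of Foxj3, Foxd2 and Foxe3 are adjacent, with 111 protein-coding genes between Foxe3 and Foxj3. Foxd2 read 79.7 and 123 (1.55-fold higher), and 51.6 and 73.0 by its other probe set. Foxe3, a lens factor, read 42.3, under the floor, and 58.7, at least 1.25-fold higher. Measured neighbours thus had the same sign on chromosome 4 and differing signs on chromosomes 8 and 13, in counts too small to go beyond description.

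Of 16 Hedgehog pathway genes, 14 were measured, with a median log2 ratio of -0.10, 6 above and 8 below 0 and 0 past 2-fold. Over all measured genes the share past 2-fold was 3.73% upwards and 6.72% downwards. Cdon, a Hedgehog and cadherin coreceptor that promotes myogenesis, read 1050 and 1868 (0.08 on the log2 scale by another probe set). Ptch1, the Hedgehog receptor and itself a target of the pathway, read 161 and 93.6.

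**Figure D4:**
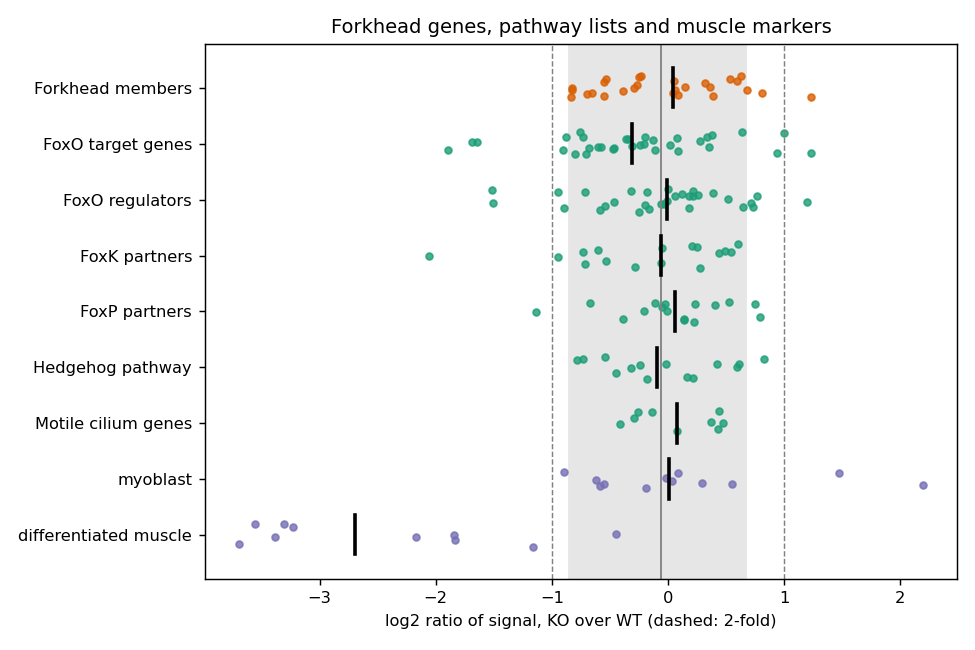
Log2 ratio of KO over WT signal (x axis, dashed lines at 2-fold) for each measured gene of the forkhead members (orange), the pathway lists (green) and the myoblast and differentiated muscle markers (purple), with a black bar at each median; the grey line and band mark the median and the middle 80% of all measured genes, -0.06 and -0.85 to 0.67. The forkhead genes and each pathway list have genes on both sides of 0, with medians of 0.04 for the forkhead members and -0.31 for the FoxO targets, and all differentiated muscle markers lie below 0, with a median of -2.70.

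The remaining members, known from other tissues, read near or under the floor with 1 exception. Foxd3, of neural crest, read 56.4 and, under the floor, 25.5, at least 1.20-fold lower. Foxa2, of endoderm, read 44.0, under the floor, and 48.5, and Foxi1, of inner ear and kidney, read 58.0 and 48.8. Foxa1, Foxa3, Foxb1, Foxb2, Foxd1 and Foxd4 were under the floor on both arrays, with readings from 2.23 to 45.2. The exception was Foxh1, a Nodal signalling partner of Smad proteins in the early embryo. It read 991 and 1592 (1.61-fold higher) by an _s_at probe set, a type that matches several transcripts, whereas its other probe sets were under the floor at 16.5 and 28.3 and at 10.7 and 23.2. The gene overlaps Kifc2, a kinesin gene, whose own probe sets read 120.1 and 149 and, with the KO value under the floor, 148 and 19.0, so the Foxh1 reading is uncertain as a measure of Foxh1.

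The cultures carried myoblast markers on both arrays. All 12 were measured, 6 above and 6 below 0, with a median log2 ratio of 0.01. Among those above 0, Msc read 27.8 in WT, under the floor, and 69.05 in KO cells, so its ratio is a bound. Past 2-fold were 2 upwards and 0 downwards, beside 3.73% and 6.72% of all measured genes. Those upwards were Myod1, the myogenic regulator, at 631 and 1751, and Sdc4, a heparan sulphate proteoglycan of satellite cells, at 468 and 2149 (276 and 322 by its other probe set). Pax7, the satellite cell factor, read 513 and 627 by its main probe set and 68.95 and 167 (2.42-fold higher) by its other one. Des, which encodes desmin, had a log2 ratio of -0.89 (of the opposite sign at its other probe set) and Itga7, an integrin chain, one of -0.62. Msc, Sdc4, Des and Itga7 were chosen after their values were seen. Ptprc and Pecam1, defining markers of leukocytes and endothelium, were under the floor on both arrays. Measured markers numbered 7 of 11 for fibroblasts (median 0.40), 3 of 8 for endothelium (0.42) and 5 of 8 for macrophages and leukocytes (-0.57). They numbered 4 of 8 for T cells (-0.05), 5 of 8 for smooth muscle and pericytes (-0.25) and 6 of 8 for Schwann and neural cells (0.15). Only 10 of the fibroblast, 7 of the T cell and 6 of the Schwann and neural markers have a probe set. Signals summed over all markers with a probe set, also those under the floor, were 1488 in WT and 1926 in KO for fibroblasts. They were 325 and 399 for endothelium, 865 and 789 for macrophages and leukocytes, and 514 and 454 for T cells. For smooth muscle and pericytes they were 9201 and 8123, and for Schwann and neural cells 827 and 846. Of 8 endoderm markers, 7 were also over the floor, with readings of up to 166, so a reading over the floor does not by itself show a transcript in these cells. The part of other cell types in the forkhead ratios was not tested.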

How the data were processed

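The authors deposited a linear intensity for every probe set of the 2 Mouse430_2 arrays, per the file headers and the labels' protocols. How probes were summarised and arrays scaled is not given in the sources used here. Both scanner records, as deposited, name the same array lot and scan day, and of 42 fields 40 were identical. Median intensities were 62.0 (WT) and 63.9 (KO), and the values were used as deposited. The number of unused value columns was 0.

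Probe sets were named from the platform annotation, and symbols were updated through Entrez identifiers in a RefSeq table (GRCm38.p6, also used for gene order): 34945 had 1 symbol, 932 several and 9160 none, and 34741 matched the table. For members 0 symbols changed, and 1 probe set shared with another gene was not used. Values under the floor were set to it before log2, and ratios with 1 array under it are bounds ("at least"). Alternatives were other scalings, floors, a pseudocount, thresholds, and choices of probe sets. Named were all members, pathway list genes past 2-fold (up to 4 a list, otherwise the 2 largest), Myod1, Pax7, Ptprc and Pecam1, and exceptions named as chosen after their values were seen. Other markers are given by list. Members and lists were chosen with earlier results of these data known. Protein identity to Foxj3 was planned and not run. The scripts were tested on simulated data with known ratios. Work was done in Python 3.11.15 and pandas 2.3.3, and the loess used statsmodels. The number of arrays limits the precision.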

Additional observations from a re-analysis of the deposited data

How the results depend on the processing

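All 27 measured members kept the sign of their main ratio under every alternative that gave a value. This is no independent support, because many settings return the same value for a bright probe set. For Foxc1, Foxd3, Foxa2 and Foxe3, under the floor on 1 array, the floor rule itself fixed the sign. The counts past 2-fold were 1 and 0 under quantile, median, loess and centred scaling. The largest move of a member was Foxd3, at -1.15 on the log2 scale with a 20th percentile floor or none. With each probe set counted by itself, 2 were higher and 3 lower. The count of higher members was 0 with a 60th percentile floor, a pseudocount or a 3-fold threshold, 3 without a floor and 5 at 1.5-fold. The count of lower members was 1 with the floor at the 20th percentile, 2 without a floor and 5 at 1.5-fold. For FoxO targets, the count of higher genes was 2 without a floor, 0 with the mean over probe sets and 3 with centring on the median ratio (an alternative chosen after seeing the data, as was the restriction to genes over the floor on both arrays), and that of lower genes 1 with the mean over probe sets. For FoxO regulators, the count of higher genes was 2 with a 20th percentile floor or none, 0 with the mean over probe sets and 3 without _s_at and _x_at probe sets, and that of lower genes 1 with the 60th percentile floor, the mean over probe sets or without _s_at and _x_at. With the mean over probe sets 1 FoxK partner and 2 FoxP partners were higher. Of FoxP partners 1 was higher without _s_at and _x_at, and 0 were lower with the 60th percentile floor, a pseudocount or the mean. Of Hedgehog genes 1 was higher without _s_at and _x_at, and of motile cilium genes 1 was higher and 2 lower without a floor. Medians changed sign for FoxK (0.08 with the mean over probe sets), FoxP (-0.09 with a 60th percentile floor), FoxD, FoxE and FoxQ (-0.06 without a floor), FoxA, FoxB, FoxG, FoxH and FoxI (-0.10 without _s_at and _x_at probe sets), all members (down to -0.14), FoxO regulators (up to 0.18), FoxK partners (up to 0.04) and motile cilium genes (down to -0.13). The cause was not tested. No paired analysis was possible because each group has 1 array. Signals near the floor limit the dim members, whose ratios are then bounds.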
